A study of Mus musculus with 9 samples.

Results

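Genes whose expression in the colonic muscle coat peaked or dipped at 3 weeks of age were taken from the libraries of mice at 3 postnatal ages. A gene was included when its values in all 3 mice of the middle age lay above, or all below, those of the other 6 mice, and 486 of the 9959 genes tested met this rule (4.88%). Of these, 145 lay above and are called peaks here (1.46% of all genes tested), and 341 lay below and are called dips (3.42%). RNA had been sequenced from the tunica muscularis of the colon of untreated C57BL/6 mice, 3 at 1 week (PW1), 3 at 3 weeks (PW3) and 3 at 5 weeks (PW5), with 1 library per mouse. The mucosa had been stripped off by dissection, RNA had been isolated from proximal and distal colon, and the labels do not say how these segments were combined in a library. Expression is given as FPKM, which divides mapped fragments by transcript length and library total, and comparisons used log2(FPKM + 1) of those genes that averaged 0.5 FPKM or more. This scale understates changes of low genes, and the depth of the libraries is unknown. The contrast quoted throughout is the PW3 mean minus the average of the PW1 and PW5 means on this scale.

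The tunica muscularis holds circular and longitudinal smooth muscle, the interstitial cells that are coupled to it, and the myenteric plexus of enteric neurons and glia. Mice of the PW3 age are close to weaning, when milk is replaced by solid food and the gut microbiota changes. In growing smooth muscle the endoplasmic reticulum folds secreted matrix proteins such as basement membrane collagens. Some chaperones and some steps of sterol synthesis belong to the same membrane system. The labelled tissue matched its markers. The 27 smooth muscle genes tested summed to 25899, 23032 and 19471 FPKM in PW1, 31576, 30257 and 34461 FPKM in PW3 and 31641, 26887 and 27581 FPKM in PW5. By the mean over libraries Actg2, enteric smooth muscle actin, was the most abundant of them.

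The PW3 libraries differed among themselves more than those of the other ages. The correlation of log2(FPKM + 1) across genes was 0.821 to 0.852 between PW3 mice, 0.872 to 0.880 in PW1 and 0.860 to 0.872 in PW5, where genes are not independent replicates. PW3 replicate 3 had 669 genes listed at 0 and a median of 5.52 FPKM, against 464 and 343 genes and medians of 6.46 and 7.18 FPKM in PW3 replicates 1 and 2, and its 10 most abundant genes held 19.5% of the summed FPKM. This library gave the lowest of the 3 PW3 values at 193 of the 341 genes that dipped (56.6%, beside 49.6% of all genes), and the highest at 63 of the 145 that peaked (43.4%, beside 23.5%). A PW3 library was listed at 0 for 21 of the genes that dipped (6.16%) and 984 of all genes (9.88%), and a peak cannot hold such a value by the rule. The 25 mucosal epithelium genes summed to 49.8, 83.6 and 214 FPKM in PW1, 29.1, 2919.8 and 157 FPKM in PW3 and 1486, 116 and 1114 FPKM in PW5, with PW3 replicate 2 the highest of all, and Car1 the most abundant gene. No gene of that list met the rule and none was at 0 in all PW3 libraries, and the part of mucosal RNA or of the library with many zeros in the counts was not tested.

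The contrast was also tested over all genes with limma, and 55 genes were higher (0.552%) and 47 lower (0.472%) in PW3 with a Benjamini-Hochberg adjusted p under 0.05. Of the genes that peaked, 28 were among the former, and of those that dipped, 28 were among the latter. These shares follow from the rule, which uses the same contrast, and are given as a description. By a size of 1 or more on the log2 scale together with an unadjusted p below 0.05, 96 genes were higher (0.964%) and 209 lower (2.1%), of which 21 and 59 met the rule. The number of calls rested on single libraries. With PW1 replicates 1, 2 and 3 left out in turn, 27, 10 and 10 genes were called higher and 13, 2 and 4 lower. The same for PW3 gave 14, 35 and 72 higher and 23, 53 and 61 lower, and for PW5 it gave 24, 10 and 5 higher and 12, 6 and 1 lower. Of the 31 called members named below, Tent5b, Nek7, Ptgs1, Sdc4 and Igfbp5 were called whichever library was left out, and the other 26 were not, so where an adjusted p of theirs is given, the highest with a library left out stands beside it. The split between peaks and dips depended on the scaling. Peaks were 29.8% of the members and higher calls 53.9% of the calls as deposited, with a median contrast over all genes of -0.10. Median-of-ratios scaling moved this median to -0.01 and gave 242 peaks and 215 dips (53% peaks), with 63 genes called higher and 24 lower (72.4% higher). Quantile normalization gave 190 peaks and 224 dips (45.9%), with 44 called higher and 25 lower (63.8%). Scaling to the same total went the other way, to 112 peaks and 379 dips (22.8%), with 39 called higher and 45 lower (46.4%). Of the 145 and 341 genes, 130 and 199 still met the rule after median-of-ratios scaling, 103 and 187 after quantile normalization and 100 and 301 at the same total. Under at least 1 of median-of-ratios, quantile and same-total scaling, the call of the contrast was lost for Pdcd2, Steap4, Col4a1, Calr, Ranbp10, Ide, Man2a2, Scara3, Socs2 and Acaa2, at limma adjusted p-values of 0.0502 to 0.218. With the mean of the mucosal epithelium genes as a covariate 19 of the 31 called members lost it, at limma adjusted p-values of 0.0506 to 0.0806. These were Pdcd2, Ncoa4, Pygo2, Krt17, Car8, Steap4, Col4a1, Ranbp10, Elk4, Fam76b, Ide, Man2a2, Stmn4, Arpc3, Scara3, H2afv, Socs2, Bdh1 and Acaa2, while Nos1 and Acads gained it. The contrasts were the same with the replicate number as a block, but 29 of the 31 lost the call, all but Tent5b and Ptgs1. Without the trend in limma 8 did, Krt17, Col4a1, Calr, Fam76b, H2afv, Socs2, Bdh1 and Acaa2, and with a pseudocount of 0.1 4 did, Pdcd2, Ranbp10, Fam76b and Ide. An unmoderated linear model lost Krt17 and Fam76b and gained Il33, Srebf2 and Psmc6.

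Each member was next set against the neighbouring ages, in comparisons that share the PW3 libraries. A gene that only rises or only falls with age can also pass the contrast, so its adjusted p alone does not show a peak or dip. Of Tent5b, Nek7, Ptgs1, Sdc4 and Igfbp5, only Nek7 was called between PW3 and PW5. The genes that peaked had a median difference of 0.54 from PW1 and of 0.43 from PW5, and those that dipped had medians of -0.57 and -0.43, on the log2 scale. Over all genes these medians were -0.17 and -0.03. PW3 and PW1 differed at 1346 of all genes (13.5%) and PW3 and PW5 at 41 (0.412%) by limma's adjusted p, and 177 and 8 of these met the rule. A call in both comparisons in the same direction was found for 2 genes that peaked, Nek7 and Sdf2l1 (0.0201% of all genes), and for 1 that dipped, Wtap (0.01%). PW5 against PW1, a comparison without PW3 libraries, was called at 1915 genes (19.2%) and at 55 of the 486 members, although the rule itself favours genes with close PW1 and PW5 values. The return toward the PW1 level was taken as the difference between PW3 and PW5 in percent of that between PW3 and PW1, and its median was 82.6% for peaks and 84.3% for dips. At PW5, 105 of 145 peaks and 278 of 341 dips were nearer to PW1 than to PW3. The other 40 and 63 genes stayed nearer to PW3 and were not transient in this sense. Genes that had moved past their PW1 level by PW5 also count as nearer to PW1. They were 54 of the 105 peaks and 114 of the 278 dips. The upper quartile of the return was 122% for peaks and 111% for dips, and Nek7 reached 356% and Calr 672%. The counts and medians thus do not separate a return to the PW1 level from a change beyond it.

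**Figure D1:**
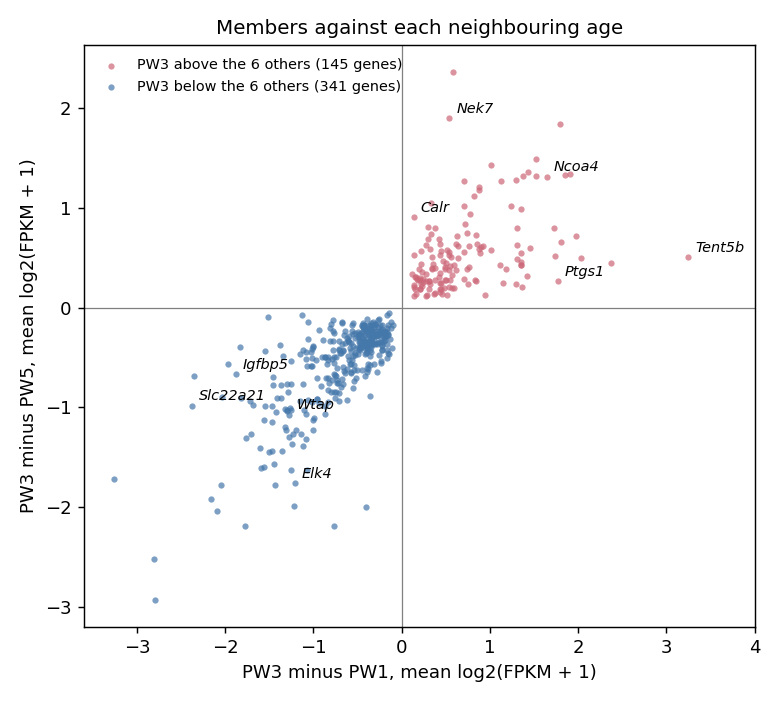
Difference of each gene that met the rule between PW3 and PW1 (x axis) and between PW3 and PW5 (y axis), in mean log2(FPKM + 1), with 1 point per gene. The 145 genes with PW3 above all other mice lie to the upper right and the 341 with PW3 below them to the lower left, Tent5b far along the x axis at 3.25 and Nek7 high on the y axis at 1.90.

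Among the peaks that fell well below their PW3 level by PW5, Nek7, a NIMA-family kinase of mitosis and of inflammasome assembly (ENSMUSG00000026393, bases 138482875 to 138620141 of chromosome 1 in GRCm38), was at 19.1, 15.9 and 17.7 FPKM in PW1, 24.6, 25.9 and 26.8 FPKM in PW3 and 5.41, 6.64 and 6.49 FPKM in PW5. Every PW3 mouse lay above every PW1 mouse, and PW5 lay below both. Its contrast was 1.22 (standard error 0.10, limma adjusted p = 0.00582), with differences of 0.53 from PW1 (limma adjusted p = 0.0213) and 1.90 from PW5 (limma adjusted p = 0.0017). The contrast of Nek7 therefore came mainly from PW5, which did not stop at the PW1 level (PW5 minus PW1 -1.37, limma adjusted p = 0.000233). Ncoa4, the receptor that delivers ferritin to autophagy, was at 4.34, 8.05 and 7.98 FPKM in PW1, 20.3, 22.6 and 25.1 FPKM in PW3 and 10.4, 9.27 and 6.32 FPKM in PW5. The PW3 mice stood apart from a low level at both other ages, and the contrast was 1.48 (standard error 0.22, limma adjusted p = 0.0297, and 0.0705 without PW5 replicate 2), with 80.1% of the difference from PW1 gone at PW5. Pdcd2 was at 1.26, 1.12 and 0.639 FPKM in PW1, 5.48, 7.95 and 6.07 FPKM in PW3 and 0.929, 2.59 and 2.64 FPKM in PW5. All PW3 mice lay above the rest, and its contrast of 1.62 (limma adjusted p = 0.0458, and 0.109 without PW1 replicate 3) was not called with any single library left out. Nek7 and Pdcd2 each share exonic bases with a gene on the other strand, and the library kit, NEBNext Ultra II RNA, does not mark strand, so that reads of such pairs cannot be told apart.

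Other peaks stayed nearer to PW3 than to PW1 at PW5 on the log2 scale. Tent5b, a poly(A) polymerase of the TENT5 family (ENSMUSG00000046694, bases 133480132 to 133487938 of chromosome 4), was at 5.52, 3.03 and 4.57 FPKM in PW1, 48.5, 43.8 and 55.6 FPKM in PW3 and 38.2, 31.7 and 33.4 FPKM in PW5. PW3 and PW5 both lay far above PW1, and the contrast of 1.88 (standard error 0.16, limma adjusted p = 0.00582) was the largest of all called peaks. Only 15.5% of its difference from PW1 was gone at PW5, and PW3 minus PW5 was 0.50 (limma adjusted p = 0.298). Ptgs1, which encodes cyclooxygenase-1 of prostaglandin synthesis, was at 21.6, 18 and 19.4 FPKM in PW1, 76.4, 64 and 67.4 FPKM in PW3 and 57.5, 56.7 and 57.5 FPKM in PW5. Its PW3 mice were the highest, those of PW5 stood just below, and its contrast was 1.02 (standard error 0.08, limma adjusted p = 0.00582). The difference from PW5 alone was 0.27 (limma adjusted p = 0.277). B2m, the light chain of MHC class I, was at 234, 222 and 289 FPKM in PW1, 626, 617 and 663 FPKM in PW3 and 513, 585 and 549.5 FPKM in PW5, with a contrast of 0.79 (standard error 0.10, limma adjusted p = 0.0174, and 0.0677 without PW5 replicate 3). The ages kept the order PW1, PW5, PW3 in this gene as well, and PW3 minus PW5 was 0.21 (limma adjusted p = 0.486). Sdc4, the heparan sulfate proteoglycan syndecan 4, had 92.8 ± 4.29 FPKM in PW3 against 35.7 ± 3.43 FPKM in PW1 and 69 ± 7.63 FPKM in PW5 (SD, n = 3), with a contrast of 0.89 (limma adjusted p = 0.0114). For Sdc4, PW3 minus PW5 was 0.43 (limma adjusted p = 0.137). Krt17, a keratin, Car8, a carbonic anhydrase relative without enzyme activity, Steap4, a metalloreductase, and Pygo2, a coactivator of Wnt signalling, had contrasts of 0.90, 0.89, 0.87 and 1.26. All of them were higher in PW5 than in PW1 as well. In the same order PW3 minus PW5 was 0.45, 0.49, 0.32 and 0.80 (limma adjusted p = 0.337, 0.21, 0.455 and 0.226). In Pygo2, 46.4% of the difference from PW1 was gone at PW5.

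Chaperones of the cytosol and the endoplasmic reticulum were among the peaks. Of the 33 protein folding genes tested, 5 lay above all other mice at PW3 and 0 below. Peaks were 1.46% and dips 3.42% of all genes, the shares to set beside each list count below. In this list 3 genes were called higher, beside 0.552% of all genes. The median contrast was 0.30 beside -0.10 for all genes, and 0.19 without PW3 replicate 3. The list medians of the differences of PW3, called median differences below, were 0.27 from PW1 and 0.18 from PW5. Hspa1b, an inducible Hsp70 of the cytosol (ENSMUSG00000090877, bases 34956436 to 34959238 of chromosome 17), was at 41.1, 37.5 and 37.6 FPKM in PW1, 101, 122 and 81.3 FPKM in PW3 and 66.9, 40.3 and 46.3 FPKM in PW5. The PW3 mice lay above all others with a wide spread, and the contrast was 1.17 (standard error 0.18, limma adjusted p = 0.0297, and 0.0856 without PW1 replicate 3). Its neighbour Hspa1a has a nearly identical coding sequence and reads can be split between the pair, so the value is uncertain. Hspa1a, named here after its values were seen, was at 23.6, 22.3 and 24 FPKM in PW1, 13.1, 63.4 and 46.4 FPKM in PW3 and 21.7, 5.33 and 28 FPKM in PW5. Its ages overlapped.

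In the endoplasmic reticulum, Sdf2l1, a partner of the chaperone BiP, was at 4.48, 4.48 and 5.11 FPKM in PW1, 8.88, 9.79 and 9.55 FPKM in PW3 and 3.28, 4.18 and 3.11 FPKM in PW5. All PW3 mice lay well above both other ages, and the contrast was 1.04 (standard error 0.14, limma adjusted p = 0.0237, and 0.0677 without PW5 replicate 3). Calr, calreticulin, the calcium-binding lectin chaperone of new glycoproteins, was at 177, 169.7 and 178 FPKM in PW1, 183, 181 and 214 FPKM in PW3 and 99.3, 102 and 105 FPKM in PW5. PW3 was just above PW1, and PW5 was far below both. The contrast of 0.52 (standard error 0.07, limma adjusted p = 0.0233, and 0.0677 without PW5 replicate 3) therefore came mainly from PW5, with differences of 0.13 from PW1 (limma adjusted p = 0.31) and 0.91 from PW5 (limma adjusted p = 0.0063). Hyou1, a large Hsp70 relative of the reticulum, was at 3.88, 3.48 and 4.54 FPKM in PW1, 4.86, 5.84 and 13.1 FPKM in PW3 and 4.57, 3.3 and 3.94 FPKM in PW5, and PW3 replicate 3 was the highest by far. Its contrast was 0.75 (limma adjusted p = 0.258), and 0.36 without that library. Hsp90b1, the Hsp90 of the reticulum, was the fifth gene, and like Sqle below it is named because the count is small, after its values were seen. It had a contrast of 0.30 (limma adjusted p = 0.293). The most abundant gene of the list, Hspb1, a small heat shock protein, went from 197, 160.4 and 183 FPKM to 541, 535 and 405 FPKM in PW3 and stayed at 716, 573 and 454 FPKM in PW5, so it did not meet the rule.

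Sequences are shown because promoters of chaperones of the endoplasmic reticulum are known for the ER stress response element, here searched as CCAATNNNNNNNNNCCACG on both strands of the 300 bases around the RefSeq gene starts of GRCm38.p6. These letters occurred in 39 of 32851 promoters (0.119%), in those of 6 of the 28 folding genes that matched a promoter, and in those of 2 of the 4 peaking folding genes that matched, Calr and Hsp90b1, but not in those of Hspa1b and Sdf2l1. Capitals mark the motif, which begins 162 bases before the start of Calr and 212 and 107 bases before that of Hsp90b1, and each window is written along the strand of its gene, the minus strand.
Calr, chr8:84847055-84847113: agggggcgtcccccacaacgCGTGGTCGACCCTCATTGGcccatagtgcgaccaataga
Hsp90b1, first match, chr10:86705618-86705676: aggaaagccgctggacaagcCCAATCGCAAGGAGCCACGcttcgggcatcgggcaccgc
Hsp90b1, second match, chr10:86705513-86705571: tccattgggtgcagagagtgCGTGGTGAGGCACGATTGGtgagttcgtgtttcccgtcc
Over all peaks 2 of 113 matched genes held these letters, and of the dips 0 of 280. The heat shock element, searched on both strands as GAA, TTC and GAA with 2 free bases between neighbours and held by 0.603% of promoters, was in none of the 4 folding genes that peaked, in 4 of the 28 folding genes matched, in 0 of the 113 peaks and in 6 of the 280 dips. A second sterol element, the NF-Y box, the glucocorticoid response element and the E-box were searched as well, and were held by 4, 46, 0 and 9 of the 113 peaks and 11, 128, 1 and 30 of the 280 dips, where 2.87%, 37.4%, 0.475% and 7.15% of all promoters held them. All 7 motifs, with the sterol element below, were chosen after the expression values were seen. A gene was counted if any of its promoters held the letters, while the shares of all promoters count single promoters, so they are not like for like. Such matches describe letters only and are no evidence of binding.

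Genes of cholesterol synthesis gave a similar count, 5 above and 0 below of 21 tested, where peaks were 1.46% of all genes. The median contrast of 0.09 was 0.21 after quantile normalization and turned to -0.03 without PW3 replicate 2. The median differences were 0.09 from PW1 and 0.26 from PW5. Srebf2, the transcription factor that drives this pathway, was at 17.9, 19.8 and 20.5 FPKM in PW1, 24.6, 27.1 and 27.7 FPKM in PW3 and 18.9, 14.7 and 16.7 FPKM in PW5. All PW3 mice were above the other 6, and the contrast was 0.53 (standard error 0.10, limma adjusted p = 0.0536), called after median-of-ratios scaling (0.64, limma adjusted p = 0.0469). Fdps, which makes farnesyl pyrophosphate, was at 35.1, 36.7 and 35.1 FPKM in PW1, 40, 40 and 50.2 FPKM in PW3 and 26.2, 28 and 28.7 FPKM in PW5. Its PW3 mice exceeded PW1 only slightly, PW5 was the lowest, and the contrast was 0.45 (limma adjusted p = 0.0624), called without PW3 replicate 3 (0.34, limma adjusted p = 0.0471). Another gene on the same strand shares exonic bases with Fdps. Idi1, of isoprenoid formation, had a contrast of 0.49 (limma adjusted p = 0.315), and Sqle, squalene epoxidase, one of 0.29 (limma adjusted p = 0.15). The early enzyme Hmgcs1, named after its values were seen, was on the other side, with -0.54, and its ages overlapped. The sterol regulatory element letters TCACNCCAC, found in 1.24% of promoters on either strand, were absent from the 300 bases of the 2 peaking genes matched, Idi1 and Srebf2, and present in 1 of the 15 genes of the list matched, 2 of the 113 peaks and 5 of the 280 dips.

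**Figure D2:**
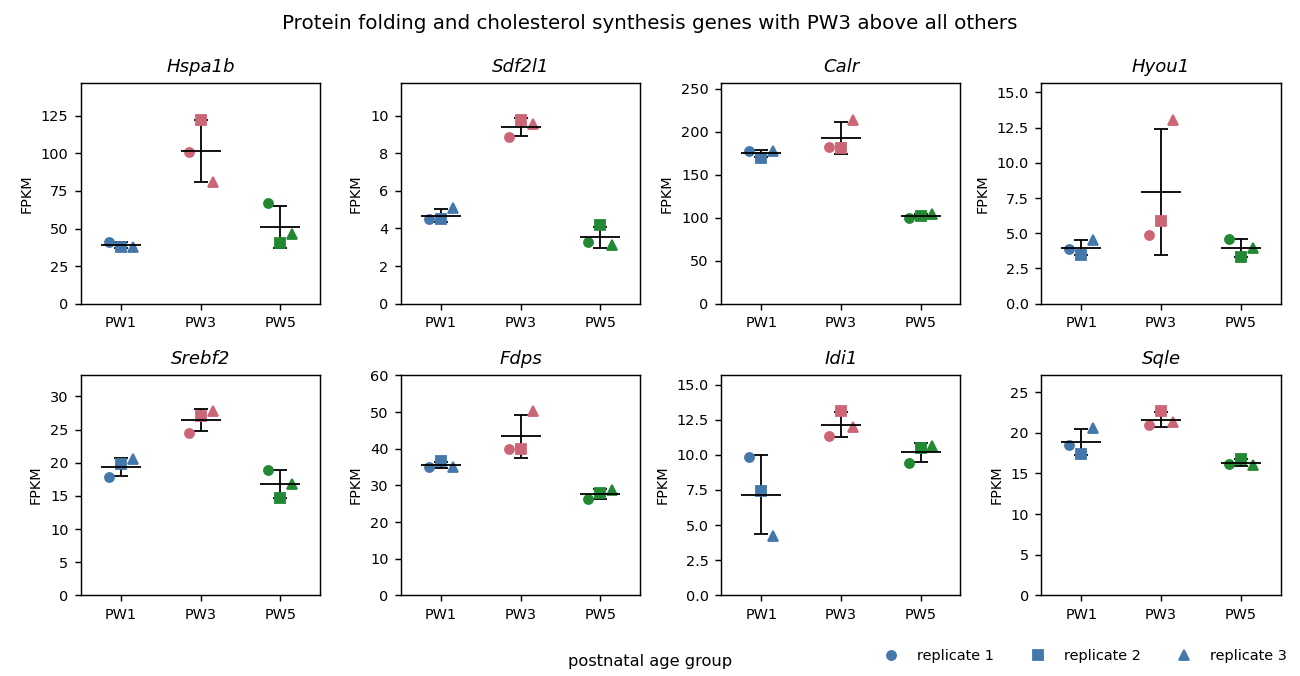
FPKM of 4 protein folding genes (upper panels) and 4 cholesterol synthesis genes (lower panels) at each age. Symbols are mice, black bars the mean and whiskers the SD of 3 mice, and each y axis starts at 0. PW3 is highest in every panel, by 0.99 over PW5 on the log2 scale for Hspa1b and by 0.27 over PW1 for Fdps.

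In the extracellular matrix list 3 of 41 genes lay above and 0 below, with a median contrast of 0.02 that was 0.10 after median-of-ratios scaling and turned to as low as -0.06, without PW3 replicate 1. The median differences, -0.36 from PW1 and 0.45 from PW5, had opposite signs. Col4a1, a chain of basement membrane collagen IV, was at 183, 176 and 170.1 FPKM in PW1, 229, 198 and 227 FPKM in PW3 and 139, 111 and 123 FPKM in PW5. Its PW3 mice were higher than those of PW1, and PW5 was lowest. The contrast was 0.56 (standard error 0.09, limma adjusted p = 0.032, and 0.0916 without PW3 replicate 1), and the difference from PW5 was 0.81 (limma adjusted p = 0.0236). Col4a2, its partner chain in the same molecule and its neighbour on the chromosome, was at 108, 125 and 115 FPKM in PW1, 158, 131 and 153 FPKM in PW3 and 99.2, 77.3 and 87.2 FPKM in PW5, with a contrast of 0.54 (limma adjusted p = 0.0541). Sparc, a collagen-binding protein and the most abundant of the list, had 1146 ± 121 FPKM in PW3 against 902 ± 61.7 in PW1 and 804 ± 37 in PW5 (SD, n = 3), with a contrast of 0.42 (limma adjusted p = 0.0945). It was 0.07 after quantile normalization (limma adjusted p = 0.846), which says little of a gene at ranks 10 to 14 in every library because equal ranks receive equal values. The contrast was called after median-of-ratios scaling (0.53, limma adjusted p = 0.0466) and without PW3 replicate 3 (0.50, limma adjusted p = 0.0471). The exons of Col4a1 and Col4a2 overlap other genes on the opposite strand.

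Smooth muscle genes had a median contrast of 0.32, and 2 of 27 lay above all others. The median differences were 0.56 from PW1 and 0.06 from PW5, so the list contrast came mainly from a low PW1. Actg2 was at 5829.8, 5215 and 4396 FPKM in PW1, 8094, 7305 and 9743 FPKM in PW3 and 6926, 4934 and 5291 FPKM in PW5. PW3 was highest in each mouse, with a contrast of 0.63 (standard error 0.19, limma adjusted p = 0.18), so the test over all genes was not passed. Quantile normalization, which gave 0.12 (limma adjusted p = 0.812), says little here, since it sets equal ranks to equal values and Actg2 was at rank 1 in 7 of 9 libraries and never below rank 3. As the most abundant gene it takes part in the FPKM of all others, and its closely similar actin relatives can share reads with it. Tpm1, a tropomyosin, had 629.6 ± 60.1 FPKM in PW3, 465 ± 37.2 in PW1 and 562 ± 12.7 in PW5 (SD, n = 3), with a contrast of 0.30 (limma adjusted p = 0.16). The called gene of this list, Pgm5, a phosphoglucomutase relative of muscle adhesion sites named after its values were seen, did not meet the rule at 0.49 (limma adjusted p = 0.0484). Itgb1, integrin beta 1, which links muscle to matrix, was at 348, 180.4 and 302 FPKM in PW1, 419, 405 and 502 FPKM in PW3 and 354, 387 and 107 FPKM in PW5. PW5 replicate 3 and PW1 replicate 2 were low, and the contrast of 0.78 (limma adjusted p = 0.4) was not called, and it was 0.48 without PW5 replicate 3.

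In the enteric nervous system, Nos1, the neuronal nitric oxide synthase of inhibitory motor neurons (ENSMUSG00000029361, bases 117781032 to 117958840 of chromosome 5), was at 3.52, 3.16 and 3.18 FPKM in PW1, 8.09, 25.6 and 14.4 FPKM in PW3 and 7.46, 3.75 and 4.78 FPKM in PW5. The PW3 mice were above all others but ranged widely, and the contrast was 1.59 (standard error 0.33, limma adjusted p = 0.0756), and with the mean of the mucosal epithelium genes as a covariate it was called (1.47, limma adjusted p = 0.0379). Its exons overlap a gene on the opposite strand. Syn1, synapsin 1, was at 10.4, 9.86 and 9.83 FPKM in PW1, 13.9, 15.5 and 12.4 FPKM in PW3 and 11.5, 7.15 and 9.88 FPKM in PW5, with a contrast of 0.48 (limma adjusted p = 0.187). These were the only members among the 35 enteric neuron genes tested, whose median contrast was -0.03, and 2 other genes of the list, Calb2 and Scg2, were called without meeting the rule (0.69 and 0.50, named after their values were seen). The median was 0.07 after median-of-ratios scaling, 0.01 after quantile normalization and 0.14 without PW3 replicate 3, and the median differences were -0.13 from PW1 and 0.04 from PW5. Among 14 genes of enteric glia, Gfra2, a receptor of the neurturin ligand, was the only member, at 2.81, 4.19 and 2.33 FPKM in PW1, 16.1, 9.71 and 12.5 FPKM in PW3 and 9.44, 9.4 and 6.68 FPKM in PW5, with a contrast of 1.13 (limma adjusted p = 0.0592). The glial median was 0.45, and 0.22 without PW1 replicate 1, with median differences of 0.84 from PW1 and 0.17 from PW5. Of the 24 ENS and SIP syncytium genes that the study chose on these samples, and which are therefore not independent evidence, the members were Nos1 and Syn1 and the median was 0.19, and 0.31 after quantile normalization, with median differences of 0.43 from PW1 and 0.06 from PW5. In bulk tissue, more cells of a type and more RNA per cell cannot be told apart.

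Among the dips, Igfbp5, which binds insulin-like growth factors (ENSMUSG00000026185, bases 72857932 to 72874884 of chromosome 1), was at 90.5, 103 and 85.3 FPKM in PW1, 28.9, 22.2 and 22.8 FPKM in PW3 and 36.8, 40.7 and 41 FPKM in PW5. PW1 was far above, and PW5 lay a little above PW3. Its contrast was -1.28 (standard error 0.10, limma adjusted p = 0.00582), and PW3 minus PW5 was -0.67 (limma adjusted p = 0.0648). Socs2, the feedback inhibitor of growth hormone signalling, was at 16.8, 17.5 and 18.9 FPKM in PW1, 10.1, 9.92 and 9 FPKM in PW3 and 10.7, 11.6 and 11.5 FPKM in PW5, with a contrast of -0.51 (standard error 0.09, limma adjusted p = 0.0462, and 0.124 without PW1 replicate 3). These 2 were the members of the growth hormone and IGF list of 20 genes, in which 5 genes were called, among them Dlk1, Grb10 and Mest, named after their values were seen (-1.62, 1.18 and -0.97). The median of -0.04 turned to 0.06 after median-of-ratios scaling and to 0.01 without PW3 replicate 3, and was -0.17 without PW1 replicate 1. The median differences were -0.65 from PW1 and 0.00 from PW5. Contrasts were over 0 for 8 genes and under 0 for 12, and the list was not tested as a set. Ide, the insulin-degrading enzyme, was at 4.82, 4.43 and 4.72 FPKM in PW1, 2.47, 0.952 and 1.8 FPKM in PW3 and 5.31, 6.1 and 5.65 FPKM in PW5. The PW3 mice stood below both other ages, which lay close together, and the contrast was -1.20 (standard error 0.21, limma adjusted p = 0.0478, and 0.124 without PW5 replicate 2).

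Wtap, a subunit of the RNA methyltransferase that writes N6-methyladenosine (ENSMUSG00000060475, bases 12966796 to 12994169 of chromosome 17), was at 8.77, 7.65 and 10.8 FPKM in PW1, 2.99, 3.13 and 3.25 FPKM in PW3 and 7.94, 7.39 and 7.74 FPKM in PW5. The PW3 mice lay close together, far below the other ages, and the contrast was -1.18 (standard error 0.14, limma adjusted p = 0.0174, and 0.0677 without PW5 replicate 3). It differed by -1.28 from PW1 (limma adjusted p = 0.00278) and by -1.08 from PW5 (limma adjusted p = 0.0473). In the spliceosome and RNA binding list 0 of 46 genes lay above and 3 below, where dips were 3.42% of all genes. The median was -0.31, beside -0.10 for all genes. The median differences were -0.62 from PW1 and -0.04 from PW5, and the median of PW5 minus PW1 was -0.55. Contrasts were over 0 for 8 genes and under 0 for 38, and the list was not tested as a set. The called gene of the list, Snrpd1, named after its values were seen, had a contrast of -0.54 and did not meet the rule. The members were Rbm25, at 19.9, 21 and 20.4 FPKM in PW1, 17.1, 14.6 and 9.31 FPKM in PW3 and 19.4, 19.1 and 22 FPKM in PW5, and Luc7l3 and Clk1, with contrasts of -0.78 and -1.05. In each of these 3 genes PW3 replicate 3 was the lowest library, and without it the median of the list was -0.17 and the contrasts of Rbm25 and Clk1 were -0.34 and -0.48.

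Other dips had varied roles. Efs, an adaptor of the Cas family in Src signalling, was at 17.3, 18.8 and 18.9 FPKM in PW1, 4.98, 3.65 and 3.34 FPKM in PW3 and 6.68, 5.95 and 6.38 FPKM in PW5, with a contrast of -1.27 (standard error 0.14, limma adjusted p = 0.016, and 0.0677 without PW5 replicate 3). PW5 stood only slightly above PW3, and PW3 minus PW5 was -0.57 (limma adjusted p = 0.182). Elk4, a serum response factor partner, had PW1 values of 1.45, 1.51 and 1.61 FPKM and PW5 values of 3.54, 2.52 and 2.15 FPKM, and it was listed at 0 in 2 of the PW3 mice and at 0.293 FPKM in the other. Its exons overlap other genes on both strands. Slc22a21, a carnitine transporter, was at 6.86, 11.4 and 8.71 FPKM in PW1, 0.928, 1.43 and 0.439 FPKM in PW3 and 3.1, 2.12 and 3.08 FPKM in PW5, with a contrast of -1.68 (limma adjusted p = 0.0297, and 0.0877 without PW1 replicate 3). Ranbp10, a Ran-binding protein, was at 4.03, 4.51 and 5.23 FPKM in PW1, 1.11, 0.0747 and 0.0854 FPKM in PW3 and 2.18, 4.25 and 4.96 FPKM in PW5. PW3 replicate 1 lay nearer to the other ages than the rest, and the contrast was -1.91 (limma adjusted p = 0.0422, and 0.11 without PW1 replicate 3). Man2a2 of the Golgi, the stathmin Stmn4, the Arp2/3 subunit Arpc3, the scavenger receptor Scara3, the histone variant gene H2afv and Fam76b had contrasts of -1.17, -1.08, -0.99, -0.91, -0.61 and -1.46. Colec12, a collectin of scavenger type, was at 30.9, 32.9 and 36.4 FPKM in PW1, 22.7, 21.1 and 0 FPKM in PW3 and 32.7, 34.2 and 29.8 FPKM in PW5. It was listed at 0 in PW3 replicate 3, and its contrast of -2.06 (limma adjusted p = 0.326) was -0.56 without that library (limma adjusted p = 0.0424). Lims1, an adaptor of integrin adhesions, was at 8.96, 30.6 and 27.3 FPKM in PW3 with a low replicate 1, against 33.8, 33.9 and 35.5 FPKM in PW1, and its contrast was -0.81 (limma adjusted p = 0.29), and -0.28 without that library.

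**Figure D3:**
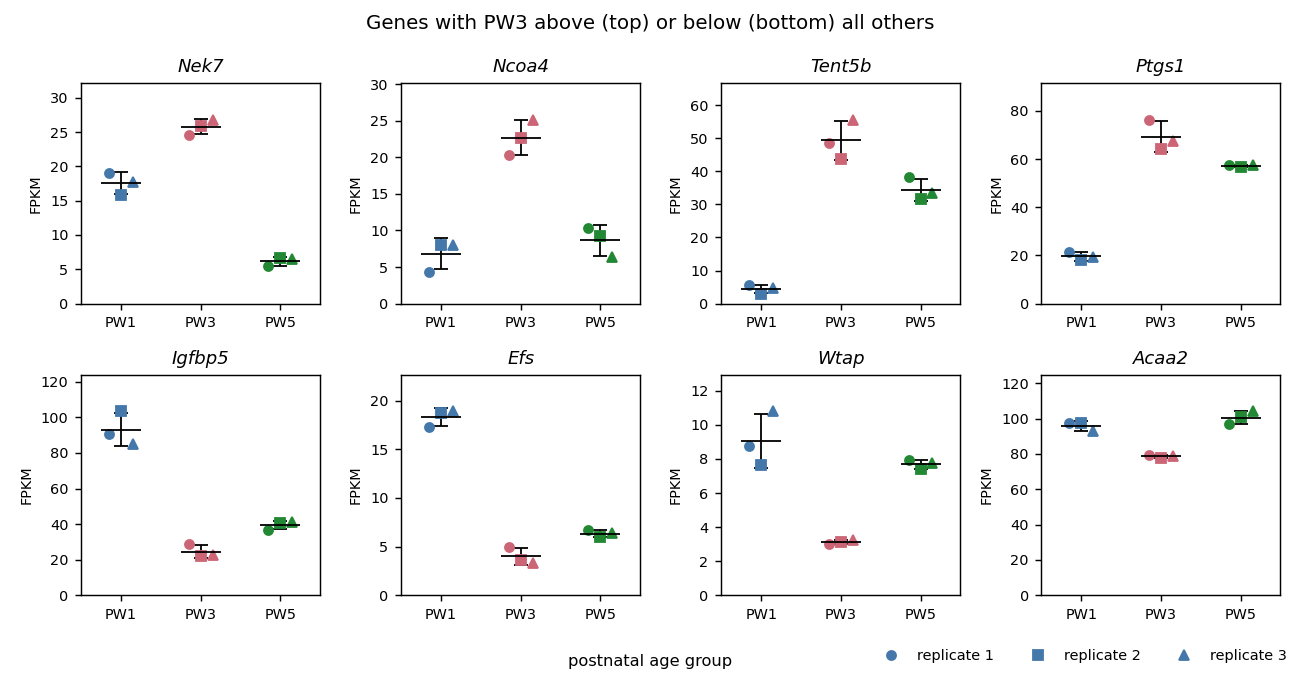
FPKM of 4 peaking genes (upper panels) and 4 dipping genes (lower panels) at each age. Symbols are mice, black bars the mean and whiskers the SD of 3 mice, and each y axis starts at 0. Tent5b and Ptgs1 stay high at PW5 while Nek7 and Ncoa4 do not, and Wtap and Acaa2 are close to PW1 again, with PW5 minus PW1 at -0.20 and 0.07 on the log2 scale.

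In the list of mitochondrial fatty acid oxidation and ketone bodies 4 of 28 genes lay below and 1 above, and the median was -0.20. It was -0.09 after median-of-ratios scaling, and -0.05, -0.32 and -0.08 without PW3 replicates 1, 2 and 3. The median differences were -0.21 from PW1 and -0.20 from PW5. Acaa2, the thiolase of the last step and the most abundant gene of the list, was at 97.7, 97.3 and 92.7 FPKM in PW1, 79.2, 77.9 and 78.7 FPKM in PW3 and 96.8, 101 and 104 FPKM in PW5. The 3 ages were tight, and its small contrast of -0.32 (standard error 0.05, limma adjusted p = 0.0354, and 0.107 without PW5 replicate 2) was called. Other scalings took its limma adjusted p to 0.218 (median-of-ratios), 0.079 (quantile) and 0.06 (same total). Acads, the short-chain dehydrogenase, was at 9.96, 9.65 and 9.93 FPKM in PW1, 0.987, 7.08 and 2.92 FPKM in PW3 and 16.4, 7.68 and 9.86 FPKM in PW5. Its PW3 mice ranged widely, with a contrast of -1.51 (limma adjusted p = 0.15), which was called with the covariate of mucosal epithelium genes (-1.67, limma adjusted p = 0.0379). Etfdh, which passes electrons from these dehydrogenases to the respiratory chain, had a contrast of -0.35. In the opposite direction Bdh1, an enzyme of ketone body metabolism, was at 72.4, 65.6 and 60.2 FPKM in PW1, 98.1, 96.5 and 84.1 FPKM in PW3 and 71.9, 70 and 69.1 FPKM in PW5, with a contrast of 0.44 (standard error 0.08, limma adjusted p = 0.0484, and 0.124 without PW5 replicate 2). All PW3 mice were above the other 6.

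In the proteasome list 6 of 34 genes lay below, where dips were 3.42% of all genes, and 0 above. The median of -0.10 was close to that of all genes and turned to 0.01 after median-of-ratios scaling. The median differences were -0.21 from PW1 and -0.07 from PW5. Psmb2 was at 45.1, 59.1 and 55.9 FPKM in PW1, 38.3, 37.8 and 31.3 FPKM in PW3 and 41, 44.9 and 40.6 FPKM in PW5, with a contrast of -0.40 (limma adjusted p = 0.146). Psma2, Psma1 and Psmc6 had contrasts of -0.29, -0.27 and -0.26, and without PW3 replicate 3 those of Psma2 and Psma1 were -0.19 and -0.11. After median-of-ratios scaling the 3 were at -0.18, -0.16 and -0.15. By contrast Psmb10, a subunit of the immunoproteasome, was the only member of the interferon response list, above all others at 0.38. In that list 23 of 27 contrasts were over 0, but the median differences were 0.85 from PW1 and -0.10 from PW5. The median contrast therefore came from the difference from PW1, and the list was not tested as a set. Among 79 cytosolic ribosome genes 2 lay below, where dips were 3.42% of all genes, and these were Rpl27a and Rps27, with contrasts of -0.71 (limma adjusted p = 0.0645) and -0.44 (limma adjusted p = 0.132). Without PW1 replicate 1 that of Rpl27a was called, at -0.80 (limma adjusted p = 0.0393). Both have many processed pseudogenes that can share reads, and Rpl27a overlaps another gene. The ribosome median of -0.12 was -0.01 after median-of-ratios scaling and -0.05 without PW3 replicate 1. Its median differences, -0.46 from PW1 and 0.20 from PW5, had opposite signs.

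Single members were found in other lists. Flt4, the lymphatic VEGF receptor, peaked among 14 endothelial genes (0.48). Tgfb3 and Il33 dipped among 15 chemokines and cytokines (-1.03 and -0.74), Nr3c1, the glucocorticoid receptor, among 21 genes of the glucocorticoid response (-0.64), Pi16 among 11 genes of PDGFRA-positive cells (-1.08) and Muc16 among 7 of the mesothelium (-1.29). Their limma adjusted p-values were 0.217 for Flt4, 0.233 for Tgfb3, 0.106 for Il33, 0.219 for Nr3c1, 0.155 for Pi16 and 0.155 for Muc16. The contrast of Nr3c1 was -0.39 without PW3 replicate 3. Contrasts over 0 were found for 4 of the 14 endothelial genes, 9 of the 15 chemokines and cytokines, 15 of the 21 glucocorticoid response genes, 5 of the 11 of PDGFRA-positive cells and 2 of the 7 of the mesothelium. The list medians were -0.26, 0.04, 0.20, -0.04 and -0.45, and with single libraries left out they ranged from -0.36 to -0.16, -0.04 to 0.28, -0.01 to 0.43, -0.15 to 0.11 and -0.75 to 0.08. In the same order the median differences were -0.71 from PW1 and 0.06 from PW5, 0.58 from PW1 and -0.19 from PW5, 0.78 from PW1 and -0.39 from PW5, -0.04 from PW1 and -0.12 from PW5, and -0.46 from PW1 and -0.44 from PW5. With a pseudocount of 0.1 the list median of the chemokines and cytokines was 0.34. The called gene of the glucocorticoid list, Fkbp5, named after its values were seen, was on the other side of Nr3c1 at 0.91 (limma adjusted p = 0.0321), and it did not meet the rule, with differences of 1.86 from PW1 and -0.04 from PW5. Myh1 and Myh3 dipped in the skeletal muscle list, where 10 of 15 contrasts were under 0 and the median differences were -1.15 from PW1 and 0.28 from PW5, but Myh1 was listed at 0 in all PW3 mice and had PW1 values of 0.158, 12.8 and 0.473 FPKM, with replicate 2 the high library, and PW5 values of 0.0912, 0.0775 and 0.0279 FPKM. In all, 19 of the 35 lists held a member. The 16 without one were cell division, immediate early genes, the circadian clock, oxidative phosphorylation, fatty acid synthesis, MHC class II presentation, neuropeptides and gut hormones, RNA quality, interstitial cells of Cajal, macrophages, lymphocytes, mast cells, adipocytes, mucosal epithelium, red blood cells and pancreatic acinar cells. Of these lists cell division held a called gene, Ndc80, named after its values were seen, at -1.62 (limma adjusted p = 0.0237), which was listed at 0 in all PW3 mice and in 2 of the PW5 mice.

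The median of mean FPKM was 15.1 for the 145 peaks and 9.87 for the 341 dips, beside 6.88 for all genes, and this was not tested. Exons overlapped another gene at 35.9% of peaks, 36.4% of dips and 36.6% of all genes. Further genes named, among them Ptgs1, Idi1, Hsp90b1, Hspa1a, Hmgcs1, Mest, Syn1, Bdh1, Etfdh, Rbm25, Man2a2, Pi16, Tgfb3, Myh1, Foxf1, Jund, 4932438A13Rik, Il34 and Lrsam1, also overlap a gene on the opposite strand. At the edge of the rule, Atp6ap1 was just inside at 21, 21.3 and 21.1 FPKM in PW1, 29.5, 28.7 and 29.9 FPKM in PW3 and 23.6, 28.7 and 27.5 FPKM in PW5, and Il34 was just outside, since it was listed at 0 in PW3 replicate 3 and at 1e-06 FPKM in PW5 replicate 3. Genes tied at the edge were passed over. Among the dips 4932438A13Rik was just inside, with PW3 replicate 2 and PW1 replicate 3 both at 2.37 FPKM after rounding, and Lrsam1 just outside, at 5.67, 7.5 and 5.75 FPKM in PW1, 5.37, 5.36 and 4.29 FPKM in PW3 and 5.37, 5.56 and 6.53 FPKM in PW5.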

How the data were processed

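RNA of the colonic tunica muscularis of 9 mice was sequenced, 1 library each. The authors aligned reads to GRCm38 with HISAT2, quantified them with StringTie and deposited FPKM of 10011 genes; tool versions are not given in the sources used here, and without counts the depth is unknown. Positions came from GENCODE M21. With a pseudocount of 1 and a mean of at least 0.5 FPKM, 9959 genes were fitted with limma 3.58.1 in R 4.3.3 (age means, trended eBayes, Benjamini-Hochberg over all genes, threshold 0.05). The fit was tried on simulated data in which each gene had the same mean and spread at every age, and some were shifted at PW3. Changes between PW1 and PW5 and a wider spread at PW3 were not simulated. Members and gene lists were chosen with earlier results of these data known. Genes named were the members with the 12 largest called contrasts each way and the 5 most abundant members each way with a contrast of at least 0.5 in size. Also named were up to 4 members and the most abundant gene of a list, members among the genes the study chose, and genes at the edge of the rule. Any others are stated, and some results are not reported here. Alternatives were other pseudocounts, filters, scalings and variance models, libraries left out, a replicate block and an epithelial covariate. Python 3.11.15 with pandas 2.3.3 and matplotlib 3.10.9 was used for annotation and figures.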

Additional observations from a re-analysis of the deposited data

Results flagged for a closer look

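For 7 of the named genes the change from PW1 to PW3 differed from that to PW5, by limma's test of the difference between PW3 and PW5. This test called 41 of all genes (0.412%). All of the 7 but Lyz2 met the rule, which uses the same PW3 and PW5 values, so their calls are a description. PW3 was higher by 1.90 on the log2 scale for Nek7 (limma adjusted p = 0.0017), 1.21 for Sdf2l1 (0.0302), 0.91 for Calr (0.0063), 0.81 for Col4a1 (0.0236) and 0.74 for Col4a2 (0.0496). PW3 minus PW5 was -1.08 for Wtap (limma adjusted p = 0.0473) and -0.82 for Lyz2 (0.0063), a lysozyme of macrophages, at 30.4, 32.1 and 30.7 FPKM in PW1, 43.9, 44.1 and 45.1 FPKM in PW3 and 75.8, 76.6 and 84.2 FPKM in PW5, with PW3 between the other ages.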

How the results depend on the processing

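With a pseudocount of 0.1, with means of 1 FPKM or more, without a filter on low genes or at the same total, each count stayed within 1.5 times its value, and none of the 68 named members changed sign under any alternative. Of the 31 named members with an adjusted p under 0.05, Tent5b, Nek7, Ptgs1, Sdc4 and Igfbp5 kept it whichever library was left out. Leaving out single libraries gave 165 to 412 genes above and 391 to 734 below, where fewer PW3 or other mice make the rule easier to meet, 5 to 72 called higher, 1 to 61 called lower, 0 to 14 higher and 0 to 18 lower in both PW3 comparisons, and 36 to 83 members called between PW5 and PW1. Median-of-ratios scaling gave 242 above and 215 below, 63 called higher and 24 lower, and 4 higher and 2 lower in both comparisons. Quantile normalization gave 190 above and 224 below, 44 called higher and 25 lower, and 2 higher and 0 lower in both comparisons. Without the trend in limma 33 genes were called higher and 66 lower, and 3 and 2 in both comparisons. An unmoderated linear model called 86 higher and 160 lower, and 6 and 14 in both comparisons. With the epithelial covariate 29 were called higher and 21 lower, and 1 and 0 in both comparisons. The cause was not tested.

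With the replicate number as a replicate block 209 genes lay above and 562 below, 2 were called higher and 0 lower, and 0 and 0 in both comparisons. The labels do not say whether mice with the same number shared anything. Deviations from the age means correlated between -0.213 and 0.0866 for libraries with the same number and between -0.115 and 0.192 for others. With so few libraries these values cannot decide it. Chosen after seeing the data, leaving out genes listed at 0 in any library gave 70 called higher and 66 lower, and 2 and 2 in both comparisons, and leaving out genes over 10-fold apart within an age, so that fewer genes were tested, gave 93 called higher and 119 lower, and 5 and 4 in both comparisons. Named genes outside the rule and without a call changed sign. After median-of-ratios scaling these were Rplp1 (0.08), Cox8a (0.03) and Psmb6 (0.07), and with the epithelial covariate Car1 (-0.42). With single libraries left out the contrast ranged from -2.13 to 2.32 for Car1, from -0.08 to 0.32 for Hbb-bs, from -0.08 to 0.00 for Psmb6, from -0.04 to 0.20 for Cldn5, from -0.02 to 0.12 for Scd2, from -0.01 to 0.47 for Jund, from -0.40 to 0.06 for Foxf1, from -0.69 to 0.01 for Cks2, from -0.14 to 0.06 for Rplp1, from -0.24 to 0.09 for Cox8a and from -0.16 to 0.57 for Hist1h1c. Unknown depth limits how far low genes can be read.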
